A study of Homo sapiens with 40 samples.

Results

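NFKBIA, NFKBIE, NFKBID and TNFAIP3 encode proteins that restrain NF-kB, and their transcripts were followed in 2 human lymphoma cell lines after NF-kB, STAT3 or the kinases upstream of STAT3 were manipulated. A gene was included if it carried 1 of these 4 symbols and a probe was included if that was its single symbol, which gave 15 of 15246 probes and 4 of 4604 genes (NFKBIA 5 probes, NFKBIE 2, NFKBID 2, TNFAIP3 6). All 4 genes had a value on all 40 arrays. The lines were OCI-Ly3 and OCI-Ly10, both established from diffuse large B cell lymphomas of the activated B cell-like subgroup. Each spotted 2-colour array set RNA of treated cells (Cy5) against RNA of control cells of the same line (Cy3).

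There were 6 experiments. In OCI-Ly3, a doxycycline-inducible IkB super-repressor was switched on with 20 ng/ml doxycycline for 1, 1.5, 2, 3, 4 or 6 h (9 arrays), and IL-10 was given at 50 ng/ml for 1, 3, 6, 24, 48 or 96 h (10 arrays). In OCI-Ly10, the super-repressor was induced for 1.5, 3, 6 or 24 h (4 arrays), IL-6 was given at 50 ng/ml for 0.5, 1, 3, 6 or 24 h (8 arrays), and JAK inhibitor I was given at 5 uM for 3 or 6 h (4 arrays). STAT3 siRNA at 4 uM was introduced into OCI-Ly10 for 8, 24 or 48 h and compared with no siRNA (5 arrays). The super-repressor, an IkB alpha that resists degradation, was carried by the induced and the control cells alike. No array measured doxycycline in cells without it, or a non-targeting siRNA, so an effect of doxycycline or of siRNA as such cannot be told apart from that of the intended target. The labels name neither the number of clones nor separate cultures behind the replicates, so the p-values reflect the spread between arrays, which may be technical. Values are log ratios of treated over control cells, read as base 2. Base 10 would not allow the range of -7.868 to 5.81, while nothing in the files tells base 2 from natural logs. No dyes were swapped, so the dye bias of a gene remains in its ratio.

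NF-kB dimers are held in the cytoplasm by IkB proteins, which are phosphorylated by the IKK complex, ubiquitinated and degraded when a receptor is engaged. Several of the brakes are themselves transcribed by NF-kB, so that active NF-kB restores its own inhibitors. NFKBIA encodes IkB alpha and NFKBIE encodes IkB epsilon, both of this cytoplasmic kind, NFKBID encodes IkB-NS, an atypical IkB that acts in the nucleus, and TNFAIP3 encodes A20, a ubiquitin-editing enzyme that shuts off signalling upstream of IKK. In activated B cell-like lymphoma NF-kB is commonly active without stimulation, and TNFAIP3 is a known tumour suppressor gene of this disease.

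The promoters are shown because NFKBIA and TNFAIP3 had the closest courses of the 4 genes in these data. RefSeq windows (GRCh38.p14) were matched for 3 of the 4 genes, with 3 alternative windows for NFKBID; NFKBIE had no entry. Each sequence below is the 250 bases before an annotated transcript start on the strand of the gene, in lower case, with matches to the kappa B consensus, the sequence motif bound by NF-kB, in capitals. For NFKBID the most downstream window is given, because it too holds a match.
NFKBIA, minus strand, chr14:35404750-35404999: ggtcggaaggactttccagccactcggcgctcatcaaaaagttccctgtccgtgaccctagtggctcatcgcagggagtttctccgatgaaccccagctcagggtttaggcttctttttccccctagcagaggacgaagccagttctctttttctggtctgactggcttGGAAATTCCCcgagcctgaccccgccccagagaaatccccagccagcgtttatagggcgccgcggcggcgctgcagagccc
TNFAIP3, plus strand, chr6:137867009-137867258: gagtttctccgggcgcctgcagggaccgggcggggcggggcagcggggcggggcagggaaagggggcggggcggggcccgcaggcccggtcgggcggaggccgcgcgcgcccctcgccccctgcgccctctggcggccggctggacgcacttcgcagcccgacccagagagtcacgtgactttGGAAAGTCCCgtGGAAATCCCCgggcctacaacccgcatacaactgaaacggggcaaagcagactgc
NFKBID, minus strand, chr19:35899744-35899993: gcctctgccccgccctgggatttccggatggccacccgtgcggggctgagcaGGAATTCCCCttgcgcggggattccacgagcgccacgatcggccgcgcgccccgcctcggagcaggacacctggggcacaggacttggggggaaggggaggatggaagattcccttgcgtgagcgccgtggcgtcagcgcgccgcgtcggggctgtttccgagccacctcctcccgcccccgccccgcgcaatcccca
The NFKBIA window held 1 match, 81 to 72 bases before the start (GGAAATTCCC on the gene's strand). The TNFAIP3 window held 2 neighbouring matches, 67 to 58 bases (GGAAAGTCCC) and 55 to 46 bases (GGAAATCCCC) before the start. In the NFKBID window shown, 1 match lay 198 to 189 bases before the start (GGAATTCCCC), and a second NFKBID window held a stretch that matched on both strands (GGGGACTCCC on the gene's strand). Both strands were searched, and of 35116 windows of the same length 9.96% held the consensus and 4.91% held it at least 2 times. A single stretch that matched on both strands counted as 2 here, so the 4.91% is not the share with 2 separate stretches. The third NFKBID window held no match. A match describes letters and not a bound site.

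Induction of the super-repressor in OCI-Ly3 lowered all 4 transcripts. Over 2 to 6 h (7 arrays) NFKBIA fell by 1.61 ± 0.10 on the log2 scale (SE), TNFAIP3 fell by 1.19 ± 0.10, NFKBIE fell by 0.73 ± 0.09 and NFKBID fell by 0.37 ± 0.08. These are 3.05-, 2.27-, 1.65- and 1.3-fold lower levels in induced cells than in control cells. All 4 genes passed the threshold (limma with Benjamini-Hochberg adjustment over 4390 genes, adjusted p under 0.05) and lay below 0 on 7 of 7 arrays. Across all genes 4.87% were called lower. NFKBIA had the lowest mean of all 4390 genes, TNFAIP3 the second lowest and NFKBIE the fifth lowest, while NFKBID ranked 95 from the lowest.

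The fall of NFKBIA built up over hours. Its log2 ratio was -0.01 at 1 h and -0.19 at 1.5 h, with 1 array each. The 2 h arrays gave -1.41 and -0.71, the 3 h array -1.52, the 4 h arrays -1.66 and -1.69 and the 6 h arrays -2.07 and -2.28. The arrays of 1 and 1.5 h lay near 0, and every later array lay below them. At 2 h NFKBIA passed the threshold (adjusted p = 0.0283) as 1 of 2 genes called lower among 4351 (0.046%), and at 3 h it was the 1 gene called among 4464 (0.0224%, adjusted p = 0.0467). The 3 h call rests on 1 array, and its spread comes from the other time points. The mean of 4 and 6 h lay below that of 1 to 2 h by 1.50 ± 0.19 (adjusted p = 0.000175 in limma). The introduced super-repressor is derived from IkB alpha, so probes of NFKBIA could also detect it; its part in these ratios was not tested.

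NFKBIE fell less. The arrays of 1 h and 1.5 h gave log2 ratios of 0.11 and -0.18, and those of 2 h gave -0.57 and -0.21. The 3 h array gave -0.67, the 4 h arrays -0.69 and -0.78 and the 6 h arrays -1.09 and -1.13. The lowest array of 1 to 2 h, at -0.57, did not reach the highest of the 3 to 6 h arrays. NFKBIE first passed at 4 h (adjusted p = 0.0292; 0.481% of genes called lower at 4 h and 1% at 6 h), and the later minus earlier difference was -0.77 ± 0.16 (adjusted p = 0.025 in limma). This last call was lost in 6 of the 8 fits that left out 1 array (-0.79 to -0.64, adjusted p 0.0638 to 0.215); it held without the 1.5 h array and without replicate 1 of 2 h.

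NFKBID changed least. The arrays of 1 h and 1.5 h gave 0.02 and -0.08, those of 2 h gave -0.35 and -0.36 and that of 3 h gave -0.37. The 4 h arrays gave -0.60 and -0.42 and the 6 h arrays -0.32 and -0.20. Unlike the other members, its 6 h arrays lay above its 4 h arrays as means over probes. The value of -0.60 at 4 h rests on probe 29903_1, as probe 31501_1 was blank there. On probe 29903_1 the times overlapped, at -0.596 and -0.382 at 4 h and -0.294 and -0.385 at 6 h. The later minus earlier difference was -0.25 ± 0.15 and did not pass the threshold (adjusted p = 0.999 in limma; 95% interval -0.56 to 0.06).

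For TNFAIP3 the arrays of 1 h and 1.5 h gave 0.03 and -0.31, and those of 2 h gave -1.23 and -0.52. The 3 h array gave -1.09, the 4 h arrays -1.19 and -1.15 and the 6 h arrays -1.62 and -1.59. The 6 h arrays were the lowest, and replicates lay close together at 4 and 6 h but not at 2 h. Its later minus earlier difference was -0.999 ± 0.175 (adjusted p = 0.00615 in limma), and -0.79 (adjusted p = 0.0922) without the 1 h array. Of the 4 genes, 3 were lower late than early, against 0.43% of all 4422 genes called lower in that comparison.

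The 2 h replicates stood apart: their ratios correlated at -0.05 across genes, against 0.70 at 4 h and 0.55 at 6 h, and replicate 1 was lower for NFKBIA, NFKBIE and TNFAIP3. With both 2 h arrays left out, an alternative chosen after seeing the data, the means over 3 to 6 h were -1.79 for NFKBIA, -1.29 for TNFAIP3, -0.84 for NFKBIE and -0.38 for NFKBID, and each still passed (largest adjusted p = 0.0227, for NFKBID). Array identifiers in the titles fell into runs of neighbouring numbers, which the labels do not describe; each array holds treated and control RNA. The means within the 2 runs of this window (3 and 4 arrays) were -1.71 and -1.55 for NFKBIA, -0.78 and -0.70 for NFKBIE, -0.42 and -0.34 for NFKBID and -1.35 and -1.09 for TNFAIP3. With the run as a random block NFKBID no longer passed (-0.38, adjusted p = 0.0598), and 120 of all genes passed in place of 616.

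**Figure D1:**
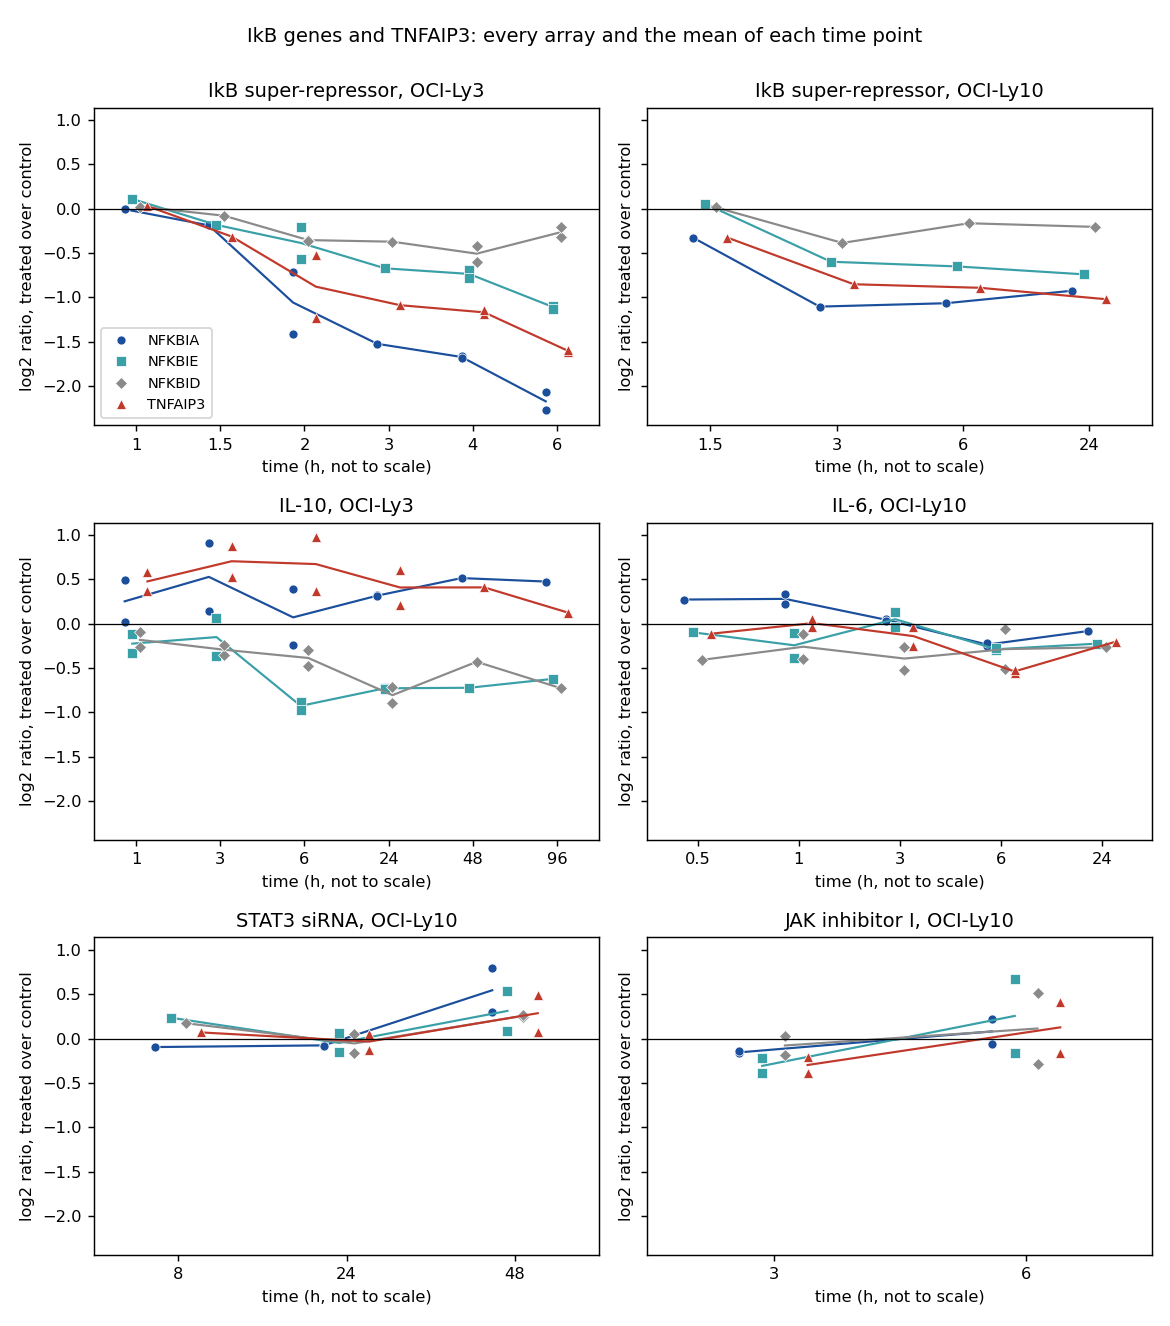
Log2 ratio of treated over control cells (y axis) against time in hours (x axis, not to scale) for the 4 genes in the 6 experiments; each point is 1 array and each line joins the means of the time points. NFKBIA and TNFAIP3 reached -2.28 and -1.62 at 6 h of super-repressor in OCI-Ly3 and lay mostly above 0 after IL-10, where NFKBIE and NFKBID lay mostly below it.

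The 4 genes did not fall equally within an array. On each of the 7 arrays NFKBIA lay below TNFAIP3 (mean difference -0.42 ± 0.18, SD) and below NFKBIE (-0.89 ± 0.20), and TNFAIP3 lay below NFKBIE (-0.47 ± 0.11). Each of these, and NFKBIA and TNFAIP3 against NFKBID, had p = 0.0156 in a two-sided exact sign-flip permutation test, the smallest value that 7 arrays allow (adjusted p = 0.0281 over 18 comparisons). NFKBIE and NFKBID differed by -0.36 ± 0.37, with 6 of 7 arrays in that direction (exact permutation p = 0.0469, adjusted p = 0.0703). A difference between 2 genes within an array shows unequal ratios and not unequal levels. The genes were compared as means over their probes. Window means of single probes lay at -1.83 to -1.30 for NFKBIA and -1.29 to -1.08 for TNFAIP3, but on single arrays the probes overlapped. At 6 h NFKBIA probe 24829_1 was at -1.725 and -1.619 and TNFAIP3 probe 28987_1 at -1.749 and -2.026. Whether the differences hold on single probes was not tested.

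In OCI-Ly10 the super-repressor lowered NFKBIA, NFKBIE and TNFAIP3. Over 3 to 24 h (3 arrays, 1 per time) NFKBIA fell by 1.03 ± 0.15 (adjusted p = 0.00269 in limma), TNFAIP3 fell by 0.92 ± 0.14 (adjusted p = 0.00269) and NFKBIE fell by 0.66 ± 0.13 (adjusted p = 0.0177). NFKBID was at -0.25 ± 0.12 and did not pass (adjusted p = 0.756). The 3 calls compare with 0.31% of 4515 genes called lower, 14 genes in all. NFKBIA ranked 4 from the lowest, TNFAIP3 6 and NFKBIE 12.

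The arrays of 1.5, 3, 6 and 24 h gave -0.33, -1.10, -1.07 and -0.92 for NFKBIA. NFKBIE was at 0.06, -0.60, -0.65 and -0.74 at the same times, and TNFAIP3 at -0.33, -0.85, -0.89 and -1.02. All 3 genes were lower on every array from 3 h on than at 1.5 h; NFKBIA was lowest at 3 h, while NFKBIE and TNFAIP3 were lowest at 24 h. NFKBID was at 0.01, -0.39, -0.16 and -0.20. Each time has 1 array, so the spread in these tests comes from the other time points and experiments. The NFKBIE call was lost when any 1 of the 3 arrays was left out (-0.70 to -0.62, adjusted p 0.0618 to 0.382) and with the identifier run as a block (-0.66, adjusted p = 0.189), and the TNFAIP3 call without the 24 h array (-0.87, adjusted p = 0.0976).

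At the times both lines share (1.5, 3 and 6 h) no member differed between them by limma. NFKBIA averaged -1.29 in OCI-Ly3 and -0.83 in OCI-Ly10, a difference of -0.46 ± 0.20 (95% interval -0.88 to -0.04, adjusted p = 0.994). TNFAIP3 averaged -1.003 in OCI-Ly3 and -0.69 in OCI-Ly10 (-0.31 ± 0.19, 95% interval -0.71 to 0.08), and NFKBIE averaged -0.65 in OCI-Ly3 and -0.40 in OCI-Ly10 (-0.26 ± 0.17, 95% interval -0.62 to 0.10). No gene of 4384 passed (0%); 108 had an unadjusted p under 0.05. These differences rest on single arrays. Leaving out 1 array gave -1.02 to -0.21 for NFKBIA, -0.66 to -0.13 for TNFAIP3 and -0.49 to -0.03 for NFKBIE. The lower ends came without the 1.5 h array of OCI-Ly3 and the upper ends without that of OCI-Ly10. Leaving out the only array of a time removed that time from 1 line and not from the other. Both ends of these ranges therefore set unlike times against each other and do not describe shared times. With arrays scaled to equal spread NFKBIA differed by -0.01, TNFAIP3 by 0.10 and NFKBIE by -0.10, and none passed.

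**Figure D2:**
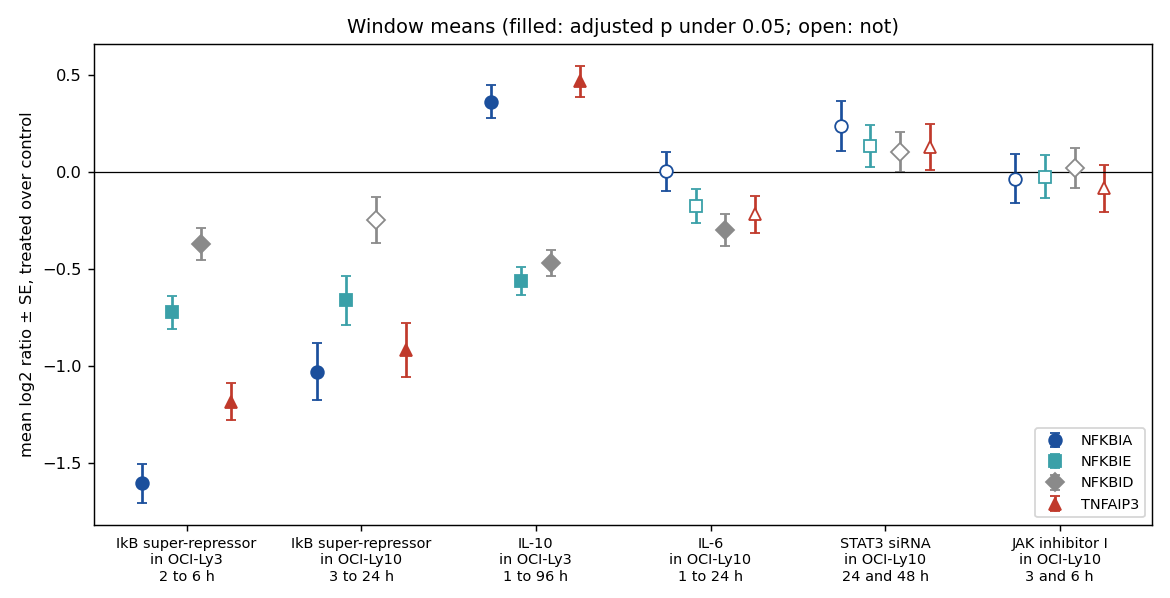
Mean log2 ratio of treated over control cells with its SE (y axis) for the 4 genes over the tested window of each experiment (x axis); filled symbols passed the threshold and open ones did not. All 4 symbols of the super-repressor in OCI-Ly3 are filled and below 0, those of IL-10 are filled on both sides of 0, and those of STAT3 siRNA and JAK inhibitor I are open and near 0.

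IL-10 in OCI-Ly3 split the 4 genes. Over 1 to 96 h (10 arrays) TNFAIP3 rose by 0.47 ± 0.08 (1.38-fold, adjusted p = 0.000185 in limma) and NFKBIA rose by 0.36 ± 0.09 (1.28-fold, adjusted p = 0.00306), while NFKBIE fell by 0.56 ± 0.07 (adjusted p = 8.02e-06) and NFKBID fell by 0.47 ± 0.07 (adjusted p = 3.14e-05). IL-10 changed many genes, with 16.1% of 4383 called higher and 19.2% called lower (35.3% in all). Ranked from the highest mean, TNFAIP3 was 136 and NFKBIA 232; ranked from the lowest, NFKBIE was 92 and NFKBID 149.

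TNFAIP3 was above 0 on 10 of 10 arrays. The 1 h arrays gave 0.58 and 0.37, the 3 h arrays 0.88 and 0.53, the 6 h arrays 0.98 and 0.37 and the 24 h arrays 0.60 and 0.22. The single arrays of 48 and 96 h gave 0.41 and 0.12. The highest arrays were those of 3 and 6 h and the lowest was that of 96 h; the difference between 24 to 96 h and 1 to 6 h (-0.30 ± 0.16, 95% interval -0.64 to 0.03) did not pass (adjusted p = 0.259 in limma). For NFKBIA the 1 h arrays gave 0.49 and 0.01, the 3 h arrays 0.91 and 0.15, the 6 h arrays 0.39 and -0.25 and the 24 h arrays 0.32 and 0.31. Those of 48 and 96 h gave 0.51 and 0.48. It was above 0 on 9 of 10 arrays, and its replicates at 1, 3 and 6 h lay far apart.

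The higher values came with replicate 1. For NFKBIA the mean was 0.53 over the 4 replicate 1 arrays of 1 to 24 h, 0.06 over the 4 replicate 2 arrays and 0.49 over the arrays of 48 and 96 h, each set a run of array identifiers of its own. For TNFAIP3 these means were 0.76, 0.37 and 0.27. All sets had positive means, but that of NFKBIA in replicate 2 was smaller than its SD of 0.24. Replicate numbers paired the arrays of 1 to 24 h in this experiment. The titles of the 48 and 96 h arrays carry no number, and the block put them with replicate 1. With the replicate as a block NFKBIA was at 0.31 and no longer passed (adjusted p = 0.071 in limma), while the other 3 genes passed. With this block 789 of all genes passed in place of 1548. The run of array identifiers as a block, which keeps these sets apart, left the NFKBIA call in place.

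For NFKBIE the 1 h arrays gave -0.12 and -0.33, the 3 h arrays 0.06 and -0.36, the 6 h arrays -0.88 and -0.97 and the 24 h arrays -0.72 and -0.74. Those of 48 and 96 h gave -0.72 and -0.62. All 6 arrays from 6 h on lay below all 4 arrays of 1 and 3 h. NFKBID lay below 0 on 10 of 10 arrays, between -0.35 and -0.10 at 1 and 3 h, at -0.47 and -0.30 at 6 h, and between -0.89 and -0.43 from 24 h on. The difference between 24 to 96 h and 1 to 6 h was -0.37 ± 0.14 for NFKBID (adjusted p = 0.0896 in limma) and -0.26 ± 0.15 for NFKBIE (adjusted p = 0.305); with the replicate block NFKBID passed (-0.37, adjusted p = 0.046). No member passed in this comparison without the block, against 13.5% of genes.

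At single time points TNFAIP3 passed at 3 h (0.70, adjusted p = 0.0213 in limma; 2.26% of genes called higher) and 6 h (0.67, adjusted p = 0.0206; 3.08%). NFKBIE passed at 6 h (-0.93, adjusted p = 0.000662; 3.71% of genes called lower) and 24 h (-0.73, adjusted p = 0.00373; 4.34%), and NFKBID at 24 h (-0.81, adjusted p = 0.00085) and 96 h (-0.73, adjusted p = 0.0216; 6.3%). The 96 h call rests on 1 array, and its spread comes from the other time points. NFKBIA passed at no single time of IL-10. In the 4 experiments with OCI-Ly10 no member passed at a single time.

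Within every one of the 10 IL-10 arrays TNFAIP3 and NFKBIA lay above NFKBIE and NFKBID. TNFAIP3 exceeded NFKBIE by 1.05 ± 0.37 (SD) and NFKBID by 0.95 ± 0.30, and NFKBIA exceeded NFKBIE by 0.87 ± 0.32 and NFKBID by 0.78 ± 0.43. All 4 had p = 0.00195, the smallest value that the exact sign-flip permutation test allows with 10 arrays (adjusted p = 0.00879). The test takes the 10 arrays as independent although replicate numbers paired those of 1 to 24 h. No blocked version was run, so these p-values may be too small. Within either pair the arrays were mixed: NFKBIA lay above TNFAIP3 on 4 of 10 (mean difference -0.17 ± 0.32, adjusted p = 0.168, exact permutation test), and NFKBIE above NFKBID on 3 of 10 (-0.09 ± 0.31, adjusted p = 0.428).

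**Figure D3:**
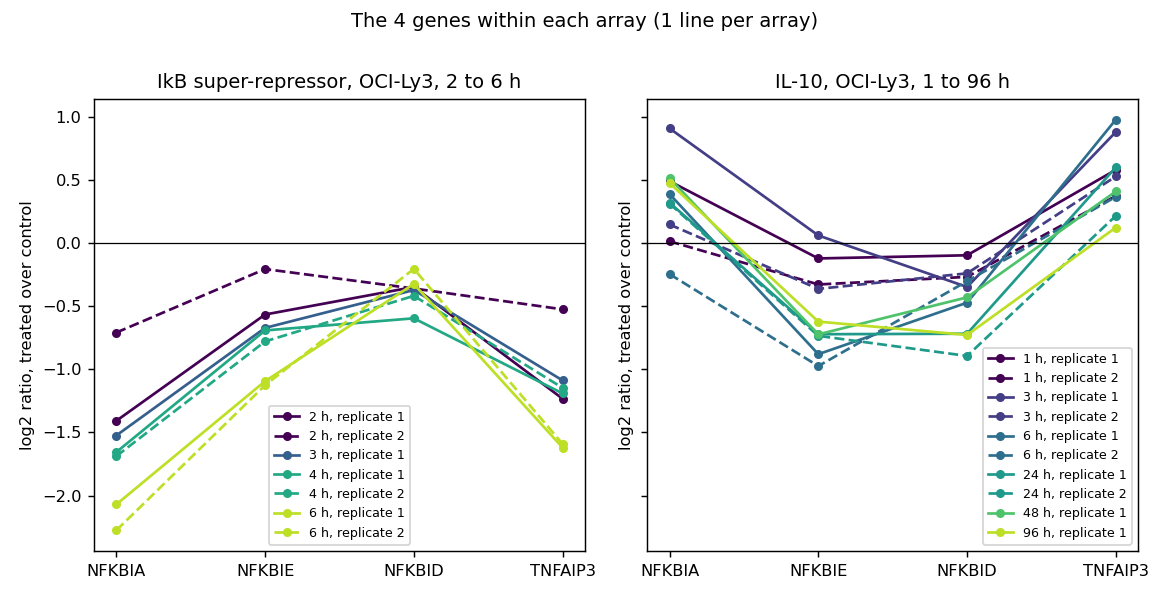
Log2 ratio of treated over control cells (y axis) for the 4 genes (x axis) on each array of the super-repressor window (left) and the IL-10 window (right) in OCI-Ly3, with 1 line per array, coloured by time, and dashed lines for replicate 2. The super-repressor lines lie below 0 throughout, with NFKBIA lower than TNFAIP3 and TNFAIP3 lower than NFKBIE on 7 of 7 arrays, and the 10 IL-10 lines are high for NFKBIA and TNFAIP3 and low for NFKBIE and NFKBID.

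At the times shared by both OCI-Ly3 experiments (1, 3 and 6 h), NFKBIA averaged -1.23 with the super-repressor and 0.28 with IL-10, a difference of -1.52 ± 0.17 (adjusted p = 1.19e-05 in limma). TNFAIP3 averaged -0.89 with the super-repressor and 0.62 with IL-10, a difference of -1.51 ± 0.16 (adjusted p = 7.15e-06). These 2 calls stand against 2.21% of 4336 genes called lower and 3.53% called in either direction. NFKBIE (-0.56 with the super-repressor and -0.43 with IL-10, difference -0.12, 95% interval -0.43 to 0.18) and NFKBID (-0.20 and -0.29 in the same order, difference 0.08, 95% interval -0.20 to 0.37) did not pass.

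IL-6 in OCI-Ly10 moved the 4 genes little. Over 1 to 24 h (7 arrays) NFKBID fell by 0.30 ± 0.08 (adjusted p = 0.0373 in limma, below 0 on 7 of 7 arrays), against 1.06% of 3301 genes called lower and 4.54% called in either direction. NFKBIA was at 0.00 ± 0.10, NFKBIE at -0.18 ± 0.09 (adjusted p = 0.246) and TNFAIP3 at -0.22 ± 0.10 (adjusted p = 0.192). Replicate numbers paired the arrays of 1, 3 and 6 h here too. With the replicate block NFKBID no longer passed (-0.30, adjusted p = 0.229 in limma) and 29 of all genes passed in place of 150. Within its 2 runs of array identifiers, of 4 and 3 arrays, NFKBID averaged -0.31 and -0.30. The NFKBID call was also lost without either 3 h array, the first 1 h array or the second 6 h array (-0.33 to -0.25, adjusted p 0.0524 to 0.121).

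For NFKBID the 0.5 h array gave -0.41, the 1 h arrays -0.40 and -0.12, the 3 h arrays -0.53 and -0.26, the 6 h arrays -0.06 and -0.51 and the 24 h array -0.27. The values overlap across times, and the replicates of 6 h span most of the range. For NFKBIA the 0.5 h array gave 0.27, the 1 h arrays 0.22 and 0.34, the 3 h arrays 0.06 and 0.03, the 6 h arrays -0.25 and -0.22 and the 24 h array -0.08. Its arrays of 0.5 and 1 h lay above 0 and those of 6 and 24 h below it, but the later minus earlier difference (-0.37 ± 0.20) did not pass (adjusted p = 0.705 in limma), and neither did that of any other member, against 0.467% of 3212 genes. TNFAIP3 lay between -0.25 and 0.05 at all times except 6 h, where it was at -0.56 and -0.52, and NFKBIE ranged from -0.39 to 0.14. NFKBIA exceeded TNFAIP3 on 7 of 7 window arrays, by 0.23 ± 0.09 (SD). The exact permutation p was 0.0156, the smallest possible (adjusted p = 0.0281), again without the pairing of the arrays by replicate number. The 5 tested TNFAIP3 probes did not agree here: 16398_1 was at 0.10 ± 0.10 and the other 4 lay between -0.44 and -0.24. Whether the difference holds on single probes was not tested.

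The cytokine experiments differed for TNFAIP3. Over the shared times of 1, 3, 6 and 24 h it averaged 0.56 with IL-10 in OCI-Ly3 and -0.22 with IL-6 in OCI-Ly10, a difference of 0.78 ± 0.13 (adjusted p = 0.000461 in limma), against 3.9% of 3644 genes called higher and 9.5% called in either direction. The values did not overlap: the 8 IL-10 arrays lay between 0.22 and 0.98, and the 7 IL-6 arrays between -0.56 and 0.05. NFKBIA differed by 0.29 ± 0.14 (95% interval 0.01 to 0.57), NFKBIE by -0.33 ± 0.12 (-0.58 to -0.09) and NFKBID by -0.12 ± 0.11 (-0.35 to 0.11), and none of these passed. Cytokine and cell line changed together here and cannot be told apart.

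STAT3 siRNA and JAK inhibitor I left the 4 genes without a call in OCI-Ly10. The siRNA lowered STAT3, its target, to log2 ratios between -2.26 and -0.89 on its 5 arrays. Over 24 and 48 h (4 arrays) NFKBIA was at 0.23 ± 0.13 (95% interval -0.03 to 0.50), NFKBIE at 0.13 ± 0.11, NFKBID at 0.10 ± 0.10 and TNFAIP3 at 0.13 ± 0.12, with adjusted p from 0.308 to 0.614 in limma; 3.31% of 4346 genes were called. At 8 h the 4 genes lay between -0.10 and 0.24 (1 array) and at 24 h between -0.16 and 0.06. At 48 h NFKBIA was at 0.30 and 0.79, NFKBIE at 0.08 and 0.54, NFKBID at 0.24 and 0.27 and TNFAIP3 at 0.08 and 0.50. As means over probes, both 48 h arrays lay above 0 for all 4 genes, and replicate 2 was the higher. Replicate 2 also had the least reduced STAT3, at -0.89. Single probes parted at 48 h. Those of TNFAIP3 lay between -0.394 and 0.467 on replicate 1 and between 0.046 and 1.122 on replicate 2. The NFKBIE probes were at -0.148 and 0.317 on replicate 1.

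With JAK inhibitor I over 3 and 6 h (4 arrays) the means lay between -0.09 ± 0.12 for TNFAIP3 and 0.02 ± 0.10 for NFKBID, with adjusted p of at least 0.812 in limma; 3.26% of 4480 genes were called. At 3 h NFKBIA was at -0.17 and -0.14, NFKBIE at -0.22 and -0.39, NFKBID at 0.03 and -0.18 and TNFAIP3 at -0.21 and -0.39. At 6 h replicate 1 was high for every member (NFKBIE 0.67, NFKBID 0.51, TNFAIP3 0.41 and NFKBIA 0.22) and replicate 2 was below 0 for every member (-0.29 to -0.06). The gap between these replicates was wider than that of 96.6% of genes for NFKBIE and of 96.1% for NFKBID, so the 6 h mean rests on arrays that disagree in sign.

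At 3 and 6 h in OCI-Ly10, NFKBIA averaged -0.04 with JAK inhibitor I and -1.08 with the super-repressor, a difference of 1.05 ± 0.22 (adjusted p = 0.0474 in limma), against 0.0902% of 4435 genes called higher. This call was lost when any 1 of the 6 arrays was left out (0.98 to 1.12) and with the identifier run as a block (adjusted p = 0.139 in limma). Without 1 of the inhibitor arrays adjusted p was 0.0536 to 0.153 in limma. Fits without a super-repressor array (1.03 and 1.07) kept both times of the inhibitor and 1 of the super-repressor. They therefore did not compare shared times. TNFAIP3 averaged -0.09 with the inhibitor and -0.87 with the super-repressor (difference 0.79, 95% interval 0.35 to 1.22) and NFKBIE -0.03 with the inhibitor and -0.62 with the super-repressor (0.60, 0.20 to 1.00); both missed the threshold (adjusted p = 0.216 and 0.433). Against IL-6 at the same times no member of the inhibitor experiment differed (2.17% of 4001 genes called), NFKBID being nearest, at 0.02 with the inhibitor and -0.34 with IL-6 (difference 0.36, 95% interval 0.05 to 0.66, adjusted p = 0.271).

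Ordered by window mean from the lowest, NFKBIA ran from the super-repressor in OCI-Ly3 (-1.61) and OCI-Ly10 (-1.03) through JAK inhibitor I (-0.04), IL-6 (0.00) and STAT3 siRNA (0.23) to IL-10 (0.36). TNFAIP3 had the super-repressor in OCI-Ly3 (-1.19) and OCI-Ly10 (-0.92) lowest, then IL-6 (-0.22), JAK inhibitor I (-0.09), STAT3 siRNA (0.13) and IL-10 (0.47). For NFKBIE the order was the super-repressor in OCI-Ly3 (-0.73) and OCI-Ly10 (-0.66), IL-10 (-0.56), IL-6 (-0.18), JAK inhibitor I (-0.03) and STAT3 siRNA (0.13), and for NFKBID it was IL-10 (-0.47), the super-repressor in OCI-Ly3 (-0.37), IL-6 (-0.30), the super-repressor in OCI-Ly10 (-0.25), JAK inhibitor I (0.02) and STAT3 siRNA (0.10). Of the neighbours in these orders that were tested at shared times, NFKBIA with JAK inhibitor I and with the super-repressor in OCI-Ly10 differed. That call was lost with either block (adjusted p = 0.139 in limma) and in all 6 fits that left out 1 array. Fits without a super-repressor array no longer compared shared times. The super-repressor in OCI-Ly3 and OCI-Ly10 was not shown to differ for NFKBIA, TNFAIP3 or NFKBIE, nor JAK inhibitor I and IL-6 for the same 3 genes, nor IL-10 and IL-6 for NFKBIE. For NFKBID neither IL-10 and the super-repressor in OCI-Ly3 nor JAK inhibitor I and the super-repressor in OCI-Ly10 were shown to differ. The other neighbours were not tested against each other.

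The probes of a gene mostly moved together, but those of TNFAIP3 parted with IL-6 (-0.44 to 0.10), with STAT3 siRNA (-0.04 to 0.41) and with IL-10. With the super-repressor in OCI-Ly3 all 15 probes passed on their own, at -1.83 to -1.30 for NFKBIA, -0.83 to -0.62 for NFKBIE, -0.39 to -0.34 for NFKBID and -1.29 to -1.08 for TNFAIP3. In OCI-Ly10, 4 of 5 NFKBIA probes, 5 of 6 TNFAIP3 probes and both NFKBIE probes passed. The TNFAIP3 probes parted after IL-10: 4 of them rose by 0.56 to 0.68 and passed, while probes 34761_1 and 35299_1 were at 0.21 ± 0.12 (adjusted p = 0.195 in limma) and 0.11 ± 0.12 (adjusted p = 0.517). All 5 NFKBIA probes rose by 0.28 to 0.45, and both NFKBID probes fell. Of the NFKBIE probes, 1 was tested for IL-10 (-0.56); the other had no value on 4 of the 10 arrays, where the gene's value rests on a single probe.

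**Figure D4:**
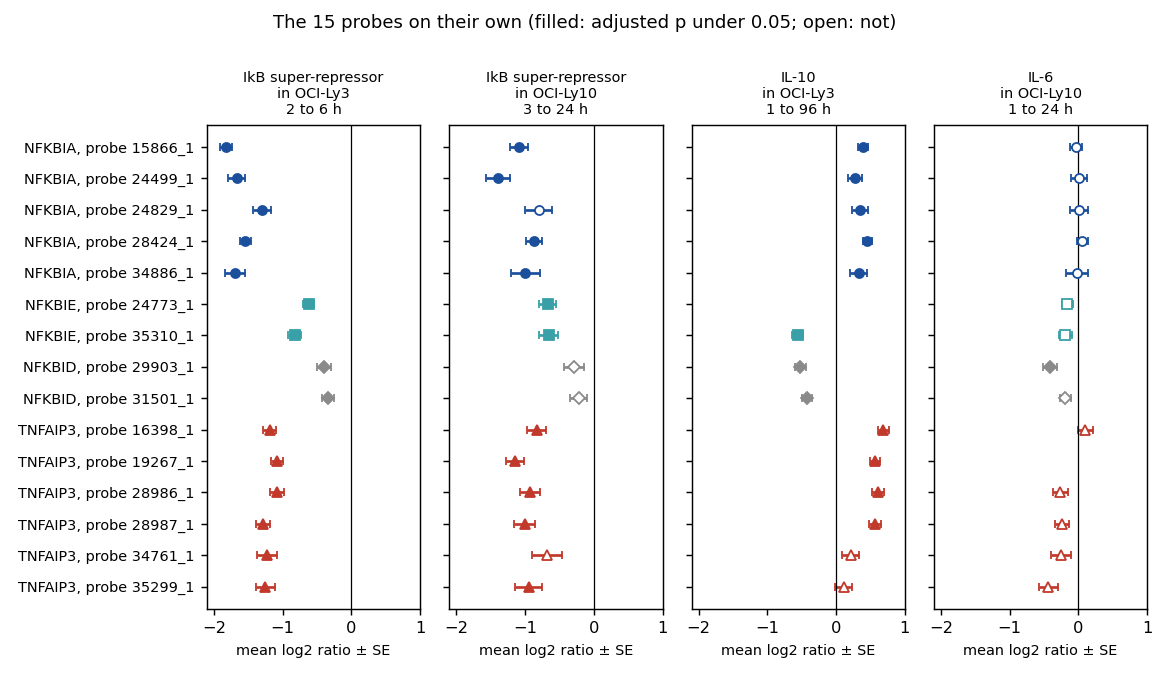
Mean log2 ratio of treated over control cells with its SE (x axis) for each of the 15 probes (y axis) in 4 experiments; filled symbols passed the threshold, open ones did not, and a missing symbol means too few values. All 15 probes lie below 0 with the super-repressor in OCI-Ly3, and 2 TNFAIP3 probes (0.21 and 0.11) lie apart from the other 4 (0.56 to 0.68) after IL-10.

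Across the 26 time points NFKBIA and TNFAIP3 had the most similar courses (Pearson's r = 0.93; 0.97 over the 10 super-repressor time points and 0.67 over the 16 others). NFKBIE and NFKBID correlated at 0.68 (0.70 over the super-repressor time points and 0.78 over the others). NFKBIE tracked NFKBIA and TNFAIP3 over the super-repressor time points (0.92 and 0.97) but not outside them (-0.17 and -0.32). These values describe time points that share arrays and experiments and carry no test.

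Among all genes with at least 22 time-point means, those most like NFKBIA after TNFAIP3 were RELB, an NF-kB subunit (0.86), VPS41 (0.81), KIAA0753 (0.80) and INPP4A (0.79). Those most like TNFAIP3 after NFKBIA were VPS41 (0.86), the survival kinase PIM2 (0.86), KIAA0753 (0.81) and BASP1 (0.80). For NFKBIE the list was IER5, an immediate-early gene (0.83), ELOA (0.81), RHOF (0.79), SLAMF7 (0.79) and ADAM8 (0.76). For NFKBID it was the cytokine TNF (0.80), SLAMF7 (0.79), the amino acid transporter SLC7A5 (0.79), ZNF154 (0.78, over 22 time points) and PRKG1 (0.77). SLAMF7 stood on the lists of both NFKBIE and NFKBID. Outside the super-repressor time points the values with NFKBIA were lower: RELB 0.71, KIAA0753 0.68, INPP4A 0.575 and VPS41 0.39. Those with TNFAIP3 were lower too: PIM2 0.76, BASP1 0.66, VPS41 0.59 and KIAA0753 0.57. The genes on the list of NFKBIE stood at 0.72 to 0.84 there, and those on the list of NFKBID at 0.81 to 0.89.

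With the super-repressor few other genes of the pathway passed, and those that fell lay above NFKBIE, the third lowest of the 4 genes. Against NFKBID (-0.37), TRAF1 and RELB lay lower and NFKB2 higher. Of 10 tested genes of the IkB family and NF-kB feedback, 2 fell and 1 rose in OCI-Ly3 (list median -0.11, median of all genes -0.03). Across all genes 4.87% were called lower and 14% in either direction, and the lists that follow stand beside the same shares. TRAF1, an adaptor of TNF receptors, fell by 0.43 ± 0.05 and NFKB2, which encodes p100, a precursor that also acts as an IkB, fell by 0.29 ± 0.05, while TNFAIP2 rose by 0.28 ± 0.08. The TNFAIP2 call was lost with the run block (adjusted p = 0.158 in limma) and with the replicate block (adjusted p = 0.126). Of 5 NF-kB subunits 2 fell, NFKB2 and RELB (0.38 ± 0.07), with a list median of -0.29. None of 21 kinases and adaptors that act on IkB passed (median -0.03), and of 4 partners of the IkB ubiquitin ligase RBX1 rose by 0.34 ± 0.06. In OCI-Ly10 none of the genes in these lists passed over the 3 arrays of the window, where 0.532% of all genes were called.

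With IL-10, which changed 35.3% of all genes, 3 of 10 in the feedback list rose and 1 fell (list median 0.01, all genes -0.02): BCL3, an atypical nuclear IkB like NFKBID, rose by 1.64 ± 0.06, BIRC2, a ubiquitin ligase, rose by 0.94 ± 0.06, TAX1BP1, a partner of A20, rose by 0.17 ± 0.05, and NFKB1 fell by 0.40 ± 0.10. Among the subunits RELB rose by 0.38 ± 0.06 and REL fell by 0.34 ± 0.07, with NFKB1 as above. With the replicate block the feedback list kept 2 genes higher (BCL3 and BIRC2) and 0 lower, and NFKB1 had adjusted p = 0.0731 in limma. Of 21 kinases and adaptors 4 rose and 5 fell (median -0.05), beside the same 35.3%. The 4 with the smallest adjusted p were MALT1, the paracaspase that cleaves A20 (0.23 ± 0.05), CD40 (-0.27 ± 0.06), CD79A (-0.34 ± 0.08) and TRAF3 (-0.35 ± 0.09); 3 rose and 4 fell with the block. RBX1 rose by 0.22 ± 0.05 and had adjusted p = 0.0541 with the block.

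BCL3 also rose with IL-6 (by 0.79 ± 0.07), as 1 of 7 tested feedback genes, beside 4.54% of all genes called. It fell by 0.76 ± 0.09 with JAK inhibitor I, as 1 of 11, beside 3.26% of all genes called. The inhibitor also raised CD79B, a subunit of the B cell receptor (0.68 ± 0.13), as 1 of 21 tested kinases and adaptors. It lowered 2 of the same list, MYD88 (0.42 ± 0.09 lower) and TBK1 (0.32 ± 0.08 lower). RBX1 (0.29 ± 0.07 lower) fell as 1 of 4 ligase partners. TBK1 (adjusted p = 0.0695 in limma) and RBX1 (adjusted p = 0.13) missed the threshold with either block. STAT3 siRNA moved none of the genes of these lists past the threshold, beside 3.31% of all genes called.

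**Figure D5:**
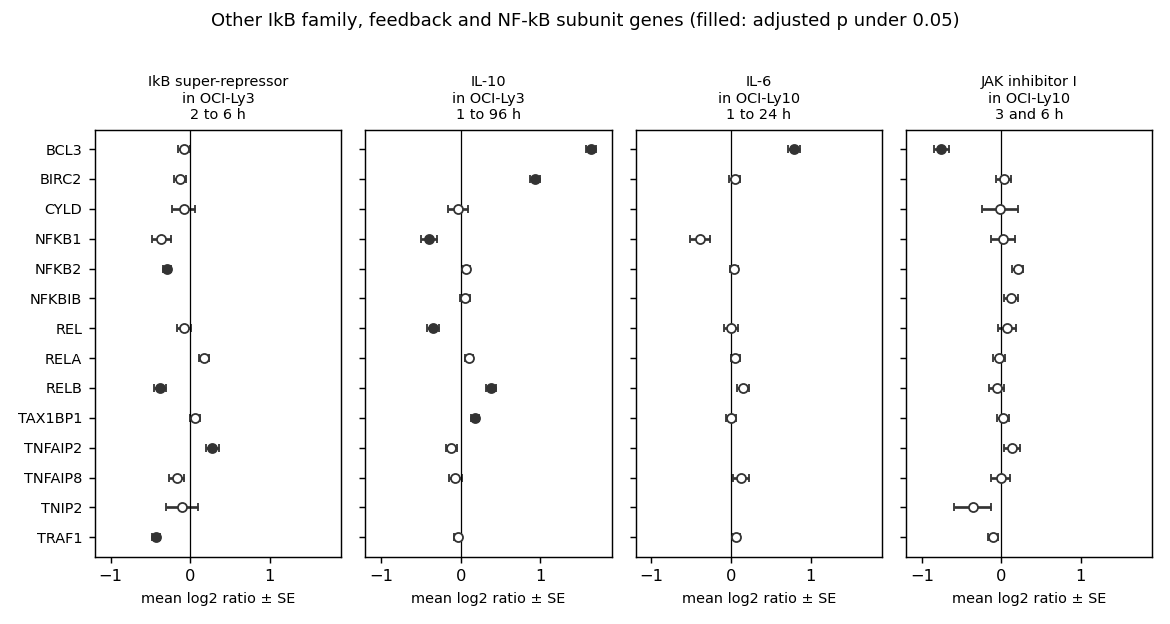
Mean log2 ratio of treated over control cells with its SE (x axis) for the 14 other IkB family, feedback and NF-kB subunit genes on the arrays (y axis) in 4 experiments; filled symbols passed the threshold. BCL3 is at 1.64 with IL-10 and 0.79 with IL-6 and at -0.76 with JAK inhibitor I.

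The arrays give ratios and no levels, so cell type markers can be given only as changes. With the super-repressor in OCI-Ly3, 1 of 7 B cell markers fell, beside 4.87% of all genes called lower and 14% called in either direction. This was PAX5, by 0.22 ± 0.06 (adjusted p = 0.144 with the run block and 0.112 with the replicate block in limma). None of 9 T and NK cell markers or 4 myeloid markers passed. With IL-10, beside the changes of the 4 genes, CD14 rose by 0.60 ± 0.09, CD4 by 0.26 ± 0.08 and CD3E by 0.17 ± 0.04, KLRD1 fell by 0.18 ± 0.07, and 2 of 7 B cell markers rose and 2 fell. That is 1 of 4 myeloid markers higher, and 2 of 9 T and NK cell markers higher and 1 lower, beside 16.1% of all genes higher and 19.2% lower; with the replicate block CD14 and CD3E still rose, and 1 B cell marker fell. Their part in the results for the 4 genes was not tested. A lower transcript ratio in bulk RNA does not separate fewer cells that express a gene from less RNA per cell.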

How the data were processed

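RNA of treated and control cells was compared on 40 spotted 2-colour arrays; per the labels' protocols, Trizol extracts were reverse transcribed with oligo-dT priming. The deposited values are log ratios, taken as log2, with array medians between -0.031 and 0.011. For background correction, spot filter and normalization the method is not given in the sources used here. No channel intensities were used, so signal over background is not given. Of all cells 12.6% were blank, and 8862 to 14947 probes had a value on an array; for the 4 genes 13 of 600 probe values were blank.

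Arrays were median-centred and the 10169 probes with a single symbol averaged per gene (5073 without a symbol and 4 with several were left out). With limma 3.58.1 (R 4.3.3) a model over all arrays gave each of 26 time points (14 with 2 arrays) its own mean, and means over time windows, courses and differences at shared times were tested with Benjamini-Hochberg adjustment over all genes. Tested genes had values at each time point and on at least 75% of the arrays compared. The spread of the control RNA does not enter a ratio tested against 0, and whether arrays shared that RNA is not stated. Pairs of genes were compared within arrays by exact sign-flip permutation tests where the window had at least 6 arrays. On simulated data, changes of 0.5 and 1 were recovered for 91.8% and 100.0% of changed genes in the design of the super-repressor in OCI-Ly3. Changes of 0.5 were recovered for 66.3% with the super-repressor in OCI-Ly10, 75.0% with JAK inhibitor I and 80.7% with STAT3 siRNA. The simulated noise was independent between arrays, and each change was the same on every array of the window. The real arrays correlated within a run (0.262), so these rates may be too high for the real data.

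The 4 genes, the lists and the tests were chosen with earlier results of these data known. Named beside the 4 genes are the 5 genes most correlated with each over time-point means, and up to 4 called genes per list and window. Differences of replicate 2 minus replicate 1 were set against each other across time points; r was 0.393 to 0.59 with IL-10 and 0.185 to 0.229 with IL-6, so the numbers were taken as pairs there; with the super-repressor in OCI-Ly3 they lay between -0.368 and 0.336. Alternatives were no centring, equal spread, median over probes, single probes, a 50% filter, the identifier run (12 runs) or the replicate as a random block, each experiment alone, and each array left out. Arrays whose titles carry no replicate number counted as replicate 1 in the replicate block, also where their run differed.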

Additional observations from a re-analysis of the deposited data

Results flagged for a closer look

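The fall of 3 genes after induction of the super-repressor in OCI-Ly3 depended on time: the mean of 4 and 6 h minus that of 1 to 2 h differed from 0 for NFKBIA (-1.50), TNFAIP3 (-0.999) and NFKBIE (-0.77). The same comparison gave -0.25 for NFKBID and did not pass. Leaving out 1 array ended the NFKBIE call in 6 of 8 fits (adjusted p 0.0638 to 0.215 in limma) and the TNFAIP3 call in 1, without the 1 h array (-0.79, adjusted p = 0.0922). Early times have 1 array at 1 h, 1 at 1.5 h and 2 at 2 h, of which the last differ. Without both 2 h arrays, an alternative chosen after seeing the data, the differences were -1.83 for NFKBIA, -1.24 for TNFAIP3 and -0.89 for NFKBIE, and each passed. No explanation was tested.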

How the results depend on the processing

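No alternative reversed the sign of a called value for the 4 genes. Without centring and with the 50% filter every called window mean of the 4 genes kept its call, and with the median over probes so did the window means and the differences within arrays. Courses and differences between experiments were not run in these settings. With the identifier run or the replicate as a block, NFKBID with the super-repressor in OCI-Ly3 was at -0.38 and -0.37 (adjusted p = 0.0598 and 0.0579 in limma), NFKBIE with the super-repressor in OCI-Ly10 at -0.66 (0.189 in both), NFKBID with IL-6 at -0.30 (0.229 in both) and NFKBIA with JAK inhibitor I minus the super-repressor at 1.05 (0.139 in both). The replicate block also ended the NFKBIA call with IL-10 (0.31) and gave one for NFKBID over its course (-0.37), and changed no other call of the 4 genes. IL-6 arrays fitted alone gave NFKBID -0.30 (adjusted p = 0.0808); the super-repressor in OCI-Ly10 could not be fitted alone, for lack of residual degrees of freedom. Scaled to equal spread, the inhibitor minus super-repressor difference passed for NFKBIE (0.90) and TNFAIP3 (1.23). Single probes missed the threshold for NFKBIA (24829_1, -0.80) and TNFAIP3 (34761_1, -0.68) with the super-repressor in OCI-Ly10, for NFKBID with IL-6 (31501_1, -0.19) and for TNFAIP3 with IL-10 (34761_1, 0.21; 35299_1, 0.11). The cause was not tested.

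Leaving out 1 array gave the following ranges. With the super-repressor in OCI-Ly10, NFKBIE was at -0.70 to -0.62 (call lost in 3 of 3 fits) and TNFAIP3 at -0.96 to -0.87 (lost in 1), and NFKBID with IL-6 at -0.36 to -0.25 (lost in 4). The later minus earlier difference with the super-repressor in OCI-Ly3 was -0.83 to -0.64 for NFKBIE (lost in 6) and -1.12 to -0.79 for TNFAIP3 (lost in 1), and with IL-10 it was -0.48 to -0.33 for NFKBID (gained in 1, without 48 h). JAK inhibitor I minus the super-repressor was 0.98 to 1.12 for NFKBIA (lost in 6 of 6) and 0.39 to 0.81 for NFKBIE. JAK inhibitor I minus IL-6 was 0.16 to 0.56 for NFKBID. The last 2 differences each gained a call without replicate 2 of 6 h of the inhibitor. Fits of the inhibitor minus the super-repressor that left out a super-repressor array no longer compared shared times. Within arrays of the super-repressor in OCI-Ly3, NFKBIA minus TNFAIP3 was -0.46 to -0.38, NFKBIA minus NFKBIE -0.95 to -0.84, NFKBIA minus NFKBID -1.39 to -1.11, TNFAIP3 minus NFKBIE -0.49 to -0.43 and TNFAIP3 minus NFKBID -0.93 to -0.73; every call was lost, with adjusted p of 0.0511 or 0.0562 (exact permutation test), as fewer arrays raise the smallest p. With IL-6, NFKBIA minus TNFAIP3 was 0.22 to 0.26 (lost in 6), NFKBIA minus NFKBID 0.27 to 0.40 and NFKBIE minus NFKBID 0.078 to 0.20 (each gained in 1).

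Numbers of genes called depended on the fit. For the super-repressor in OCI-Ly3, 616 genes became 120 with the run block, 168 with the replicate block, 368 in its arrays alone and 269 to 957 with 1 array left out; in OCI-Ly10, 24 became 5 with either block, 238 at equal spread and 1 to 17 with 1 array left out. For IL-6, 150 became 29 with either block, 71 alone, 455 at equal spread, 252 with the 50% filter and 93 to 147 with 1 array left out; for IL-10, 1548 became 789 with the replicate block and 1031 alone. For STAT3 siRNA, 144 became 47 with either block, 0 alone, 83 at equal spread and 21 to 106 with 1 array left out, and for JAK inhibitor I, 146 became 78, 12, 232 and 44 to 160 in the same settings.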
